A study of Mus musculus with 18 samples.

Results

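The RNA exosome subunit genes are the 10 genes *Exosc1*, *Exosc2*, *Exosc3*, *Exosc4*, *Exosc5*, *Exosc7*, *Exosc8*, *Exosc9*, *Exosc10* and *Dis3*. They were taken by symbol from the 54446 genes of the count files, through the GENCODE M21 annotation, and no measured value entered their choice. New RNA of mouse embryonic stem (mES) cells took up the clickable uridine analogue 5-ethynyl uridine (EU, 1 mM) over 10, 20 or 40 min before it was biotinylated, pulled down and sequenced. WT and *Tet2*-KO (*Tet2*-/-) mES cells were compared at each time, with 3 replicates in each of the 6 groups and 18 libraries in total. TET2 is a dioxygenase that oxidizes 5-methylcytosine. Cells of both genotypes grew in serum with LIF, the GSK3 inhibitor CHIR99021 and the MEK inhibitor PD0325901, and had been passaged on gelatin to remove feeder cells. The replicates were dishes of a single WT line and a single *Tet2*-KO line, so that genotype and line cannot be told apart and p-values measure the spread between dishes. By the methods of the study, ERCC spike-in RNA was added to the RNA eluted from the pull-down, in proportion to total RNA. Reads per 1000 ERCC reads (the ERCC scale) thus give labelled RNA relative to total RNA and not per cell. Differences in the yield of biotinylation or pull-down are not corrected by a spike-in added after them. CPM, the usual scaling of counts by the total of gene reads (the share scale), gives the part of all labelled RNA that a gene holds.

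The RNA exosome degrades and trims RNA from its 3′ end in the nucleus and the cytoplasm. Its core is a barrel without catalytic activity of its own in mammals, in which a ring of RNase PH-like subunits (EXOSC4 to EXOSC9) carries a cap of S1 and KH domain subunits (EXOSC1, EXOSC2 and EXOSC3). RNA is threaded through the barrel to the nuclease DIS3 at its base, while the nuclear nuclease EXOSC10 sits near the cap. In the nucleus the complex removes promoter upstream and enhancer transcripts and trims precursors of ribosomal and small nucleolar RNA, and the helicase MTR4, encoded by *Mtrex*, feeds RNA into it.

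Between 17931614 and 23069143 reads per library fell on genes and between 44162 and 512186 on ERCC transcripts. No library was a copy of another, since chi-square per gene averaged 1.66 to 5.52 between replicates. Of 10 ES cell markers, 9 had reads in every library, and their sum was 3120 to 3300 CPM in WT and 2240 to 2370 in *Tet2*-KO libraries. The remaining marker, *Sox2*, had 0 reads in every library and lies inside *Sox2ot* on the same strand, so its transcription was not measured. Fibroblast markers summed to 6.46 to 22.9 CPM in WT and 6.48 to 13.9 in *Tet2*-KO, and primitive endoderm markers to 14.9 to 21.7 and 14.7 to 19. Of the 9 ES cell markers tested, 7 were lower (32.0% of all genes tested) and 2 higher (24.6%) in average share of gene reads in *Tet2*-KO. Their log2 fold changes ran from −2.25 for *Zfp42* to 0.25 for *Utf1*, and the part of such a shift in the results was not tested. Reads on the whole body of *Tet2* gave 0.54 ± 0.0489 (log2, SE) on the ERCC scale and −0.20 ± 0.0113 on the share scale for *Tet2*-KO over WT, which does not show an exon deletion, so genotypes are those of the labels.

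All 10 subunit genes passed the filter on low counts, with between 62 (*Exosc4*) and 2798 (*Exosc9*) reads per library. The counts covered whole gene bodies and kept the strands apart. Of 2497 genes that lie in an intron of a well-read gene on the same strand, 2 (0.0801%) had at least 10 reads over all libraries, against 48.7% of 2058 such genes on the opposite strand. *Exosc6*, the remaining ring subunit gene and not a member of the set, had 0 reads in all 18 libraries, and its single exon lies wholly inside *Aars* on the same strand, so its transcription was not measured. Among the members, *Exosc3* alone overlapped a gene on its own strand, a processed pseudogene with 0 reads. The genes that overlap members on the opposite strand, such as *Pibf1* at *Dis3*, *Ccna2* at *Exosc9* and *Supt20* at *Exosc8*, were counted apart.

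Because intronic reads were counted, levels were compared between genes per kilobase of gene span. In WT at 10 min, the ring gene *Exosc9* had the highest level, at 9.43 ± 0.135 CPM per kilobase (SD, n = 3), followed by the cap gene *Exosc2* at 8.41 ± 0.624. *Exosc5* followed at 4.75 ± 0.0283 and *Dis3* at 4.43 ± 0.104, with no overlap between their libraries. *Exosc10* (3.28 ± 0.197), *Exosc1* (3.19 ± 0.265) and *Exosc7* (3.17 ± 0.0867) differed by less than their spread. *Exosc8* (2.71 ± 0.108), *Exosc4* (1.11 ± 0.206) and *Exosc3* (0.374 ± 0.0488) were lowest. The level of labelled RNA per length thus spanned a wide range among subunits of 1 complex. The annotated span of *Exosc3* begins 22116 bases upstream of its RefSeq start, which lowers its value per kilobase of span. Per kilobase of exon, the usual length for mature RNA, *Exosc2* (31.0 ± 2.3) and *Exosc9* (26.3 ± 0.377) were still the highest, in reversed order. *Exosc4* (1.87 ± 0.347) was the lowest, with *Exosc3* at 7.37 ± 0.962. The order between them also changed, with *Exosc10* (21.9 ± 1.31) above *Dis3* (14 ± 0.33) and *Exosc5* (9.24 ± 0.0551).

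**Figure D1:**
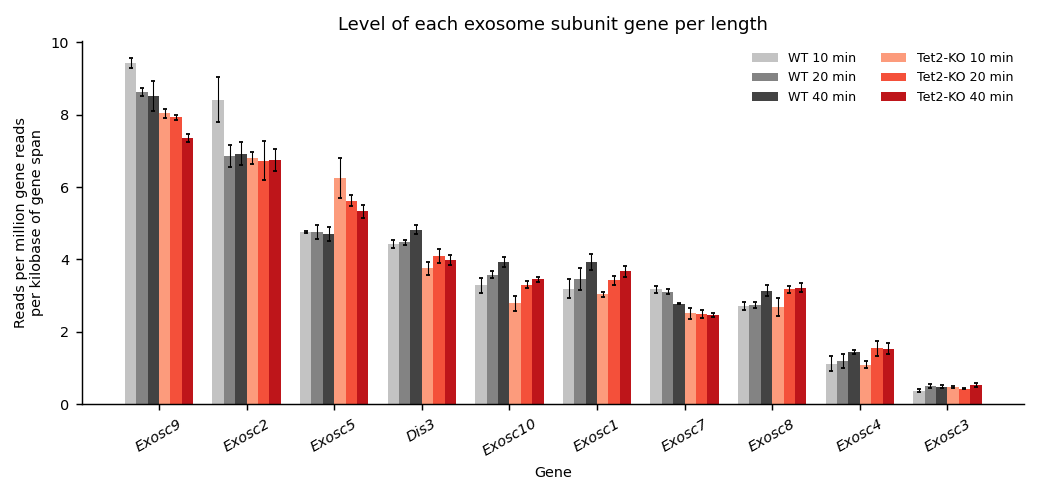
Level in CPM per kilobase of gene span for each subunit gene (bars, mean; error bars, SD, n = 3), in WT (grey) and *Tet2*-KO (red) at 10, 20 and 40 min of EU, ordered by the WT level at 10 min. *Exosc9* and *Exosc2* stand highest in every group and *Exosc4* and *Exosc3* lowest. Among these genes, *Exosc5* is the one whose red bars exceed its grey bars at all 3 times without overlap between libraries. The number of all genes tested that do so was not counted.

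The first comparison was *Tet2*-KO against WT at equal labelling time, which asks how *Tet2* loss bears on new RNA from these genes. On the ERCC scale all 10 subunit genes were higher in *Tet2*-KO when averaged over the 3 labelling times, with log2 fold changes of 0.46 (*Exosc7*) to 1.01 (*Exosc5*). Of all 19910 genes tested, 80.5% were called higher in this comparison, and the median log2 fold change was 0.70 for all genes and 0.64 for the subunit genes, so the subunit genes were no higher than the bulk of the table. In bulk libraries fewer cells of a type and less RNA per cell cannot be told apart. Their summed level per 1000 ERCC reads was 27.97 ± 2.42 (SD, n = 3) in WT and 51.4 ± 2.91 in *Tet2*-KO at 10 min, 86.1 ± 5.03 and 114.8 ± 6.17 at 20 min, and 148 ± 3.08 and 219 ± 14.7 at 40 min. At 10 min all 10 were called higher (79.0% of all genes), with no overlap between the libraries of the genotypes. At 40 min all 10 were again called higher (68.2% of all genes) and again did not overlap. How many of all genes tested were without overlap was not counted. At 20 min 8 were called higher (53.7% of all genes). The exceptions at 20 min were *Exosc3*, with a log2 fold change of 0.28 ± 0.142 (SE; edgeR, adjusted p = 0.0846), and *Exosc7*, with 0.17 ± 0.0981 (edgeR, adjusted p = 0.137). The smaller difference at 20 min was shared by the whole table, whose median log2 fold change was 0.96 at 10 min, 0.45 at 20 min and 0.67 at 40 min.

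**Figure D2:**
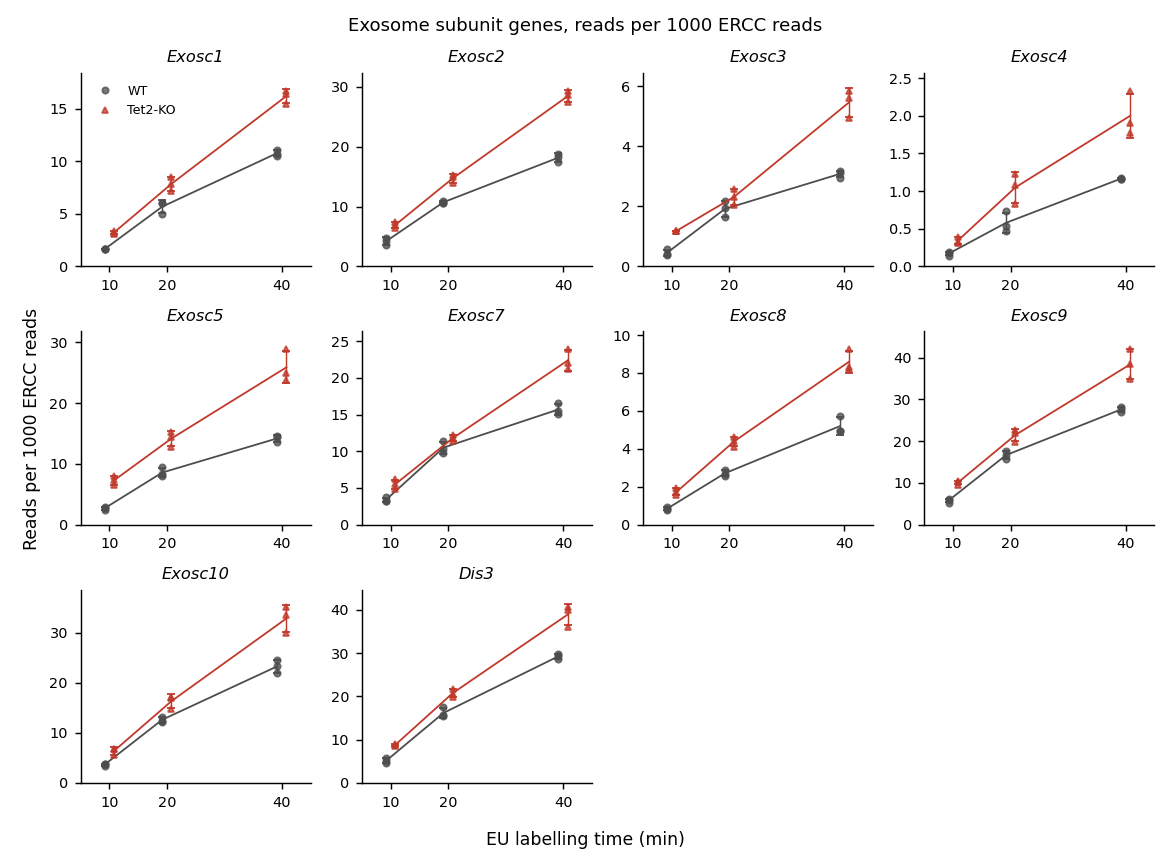
Reads per 1000 ERCC reads of each subunit gene against EU labelling time, with each library as a point (WT, grey circles; *Tet2*-KO, red triangles), lines through the means and error bars of SD (n = 3), each panel with its own linear axis from 0. All genes rise with labelling time in both genotypes, and the *Tet2*-KO libraries lie above the WT libraries for all 10 genes at 10 and 40 min and for 8 genes at 20 min. How many of all genes tested lie so was not counted.

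As a share of gene reads, which sets each gene against the total of all genes, the subunit genes fell on both sides of 0. Averaged over labelling times, 1 subunit gene was higher in *Tet2*-KO (24.6% of all genes tested were called higher) and 5 were lower (32.0% of all genes tested were called lower). The one that rose was the ring gene *Exosc5*, and those that fell were the ring genes *Exosc7* and *Exosc9*, the cap gene *Exosc2* and both nuclease genes, *Exosc10* and *Dis3*. *Exosc1*, *Exosc3*, *Exosc4* and *Exosc8* did not pass the test. With TMM factors or with DESeq2 and its size factors the split was 2 higher and 5 lower, with *Exosc8* added at 0.12 (log2) in both. The median share difference was −0.093 for the subunit genes and −0.037 for all genes, and the summed share was 598.5 ± 3.02 CPM (SD, n = 3) in WT and 538 ± 1.21 in *Tet2*-KO at 10 min, 585 ± 1.04 and 557 ± 4.54 at 20 min, and 601 ± 14.2 and 552 ± 6.79 at 40 min.

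**Figure D3:**
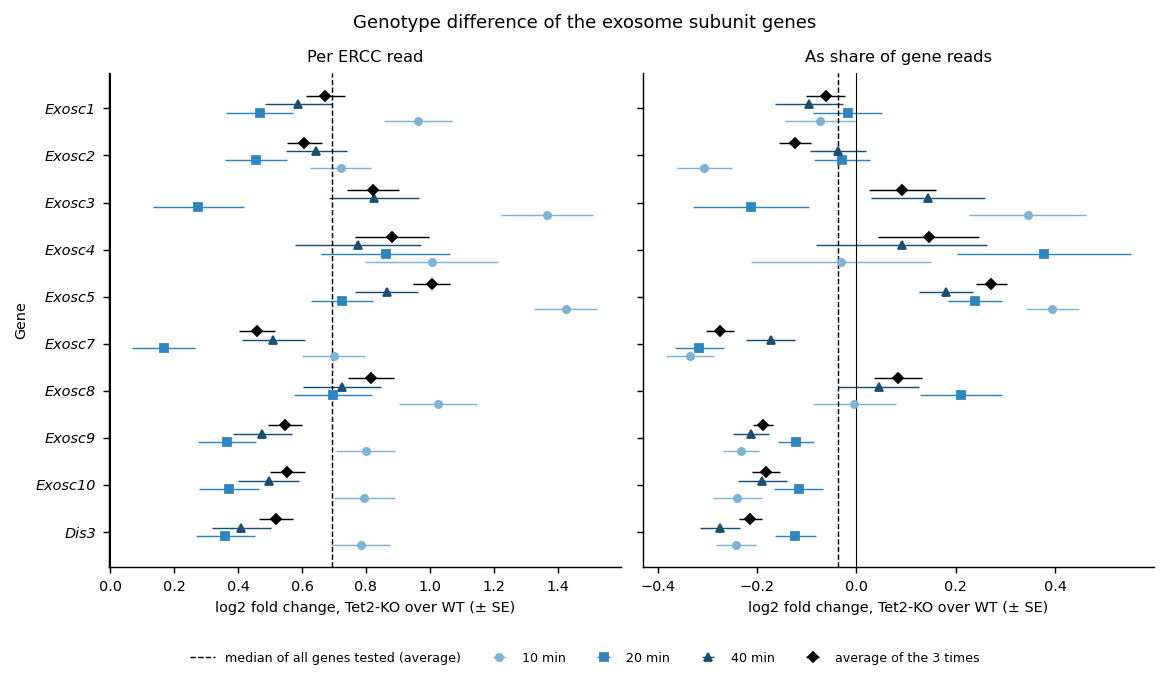
log2 fold change of *Tet2*-KO over WT for each subunit gene (x axis; error bars, SE) at 10, 20 and 40 min and averaged over them, on the ERCC scale (left) and as share of gene reads (right). Solid lines mark 0 and dashed lines the median of all 19910 genes tested for the averaged contrast, 0.70 and −0.037. All averaged values are above 0 on the left, whereas on the right *Exosc5* lies at 0.27 and *Exosc7*, *Dis3*, *Exosc9*, *Exosc10* and *Exosc2* between −0.27 and −0.12.

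*Exosc5* encodes a ring subunit and lies at chr7:25659164-25671368 of mm10 on the plus strand. Its share at 10 min was 57.6, 57.8 and 58.3 CPM in the 3 WT libraries and 68.7, 81.5 and 78.7 in the 3 *Tet2*-KO libraries. At 20 min the shares were 55.4, 59.9 and 59.1 in WT and 67.0, 70.7 and 68.2 in *Tet2*-KO. At 40 min they were 55.8, 56.5 and 60.1 in WT and 67.3, 65.2 and 62.7 in *Tet2*-KO. Every *Tet2*-KO library was therefore above every WT library at the same time, and the gap was widest at 10 min. Such gaps between libraries in share, in either direction, were not counted over all genes tested. The log2 fold change of the share was 0.27 ± 0.0313 (SE) on average (edgeR, adjusted p = 4.46e-09), 0.39 ± 0.0535 at 10 min, 0.24 ± 0.0545 at 20 min and 0.18 ± 0.0545 at 40 min (edgeR, adjusted p = 0.00841). The call at 40 min was lost without *Tet2*-KO replicate 1, at 0.16. On the ERCC scale *Exosc5* had the largest averaged increase of the 10 genes, although at 20 min *Exosc4* had the larger value (0.86 against 0.73). *Exosc5* went from 2.71 ± 0.223 to 7.27 ± 0.669 reads per 1000 ERCC reads at 10 min (SD, n = 3) and from 14.2 ± 0.544 to 25.9 ± 2.65 at 40 min. Its average log2 fold change there, 1.01 ± 0.0569 (fold 2.01), was at the percentile 80.2 of all genes tested, so such a value was not rare in the table.

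*Exosc7*, another ring gene, at chr9:123113215-123136129 on the plus strand, moved the other way. Its share at 10 min was 70.6, 73.0 and 74.5 CPM in WT and 57.1, 54.4 and 61.2 in *Tet2*-KO. At 20 min it was 71.5, 72.6 and 69.8 in WT and 59.5, 54.5 and 57.8 in *Tet2*-KO, and at 40 min 63.4, 64.0 and 63.2 against 55.8, 57.9 and 55.4. The genotypes did not overlap at any time, with *Tet2*-KO below, and the average log2 fold change of −0.27 ± 0.0281 was the lowest of the set (edgeR, adjusted p = 3.23e-10). On the ERCC scale *Exosc7* had the smallest increase, 0.46 ± 0.0567, at the percentile 26.1 of all genes.

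*Exosc9*, the ring gene with the most reads, lies at chr3:36552606-36565727 on the plus strand. At 10 min its share was 125.5, 122 and 124 CPM in WT and 105, 107 and 104 in *Tet2*-KO, and at 40 min 111, 107 and 118 against 97.9, 95.0 and 96.7. The *Tet2*-KO libraries lay below the WT libraries at each time, and the average log2 fold change was −0.19 ± 0.0209 (edgeR, adjusted p = 2.01e-09). The remaining ring genes were read less. *Exosc8* (chr3:54728678-54735393, minus strand) had 18.2 ± 0.725 CPM in WT at 10 min and 18.1 ± 1.67 in *Tet2*-KO (SD, n = 3), with an average log2 fold change of 0.08 ± 0.0476 (edgeR, adjusted p = 0.136). *Exosc4* (chr15:76327397-76330677, plus strand), with 62 to 110 reads per library, had 0.15 ± 0.102 (edgeR, adjusted p = 0.229), the largest standard error of the set.

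Of the nuclease genes, *Dis3* encodes the main exosome nuclease and lies at chr14:99075206-99099770 on the minus strand. Its share was 108, 112 and 107 CPM in the WT libraries at 10 min and 93.9, 95.4 and 87.0 in *Tet2*-KO. At 20 min the shares were 108, 111 and 110.1 in WT and 104, 95.5 and 103 in *Tet2*-KO, and at 40 min 121, 115 and 119.5 against 94.5, 98.6 and 100.9. *Tet2*-KO was below WT without overlap at all 3 times, by −0.21 ± 0.0236 on average (edgeR, adjusted p = 1.83e-09). *Exosc10* (chr4:148558429-148582401, plus strand), whose product is the nuclear nuclease, had shares of 82.2, 73.3 and 80.7 in WT and 71.4, 61.7 and 66.6 in *Tet2*-KO at 10 min, and 90.5, 94.7 and 97.3 against 81.6, 81.8 and 84.4 at 40 min. It also lay below WT without overlap at each time, with an average of −0.18 ± 0.0285 (edgeR, adjusted p = 1.66e-06), although its contrast at 20 min alone did not pass (−0.12 ± 0.0494, edgeR, adjusted p = 0.0626). Within a library, reads on *Exosc10* per read on *Dis3* were 0.724 ± 0.0587 in WT and 0.724 ± 0.0672 in *Tet2*-KO at 10 min (SD, n = 3), and 0.795 ± 0.0404 and 0.843 ± 0.0181 at 40 min. The ranges of this ratio overlapped between genotypes at 10 and 20 min. At 40 min they did not, at 0.749 to 0.823 in WT and 0.830 to 0.864 in *Tet2*-KO.

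Among the cap genes, *Exosc2* alone was called in share when averaged over labelling times, and differences between the cap genes were not tested. *Exosc2* (chr2:31670715-31681349, plus strand) had shares of 92.7, 93.7 and 81.8 CPM in WT and 71.9, 70.9 and 74.1 in *Tet2*-KO at 10 min. At 40 min its shares were 77.3, 70.6 and 72.9 in WT and 68.3, 74.8 and 72.05 in *Tet2*-KO. The groups were apart at 10 min and overlapped at 20 and 40 min, and the average log2 fold change was −0.12 ± 0.0324 (edgeR, adjusted p = 0.00146). *Exosc3* (chr4:45316613-45342732, minus strand) had shares of 9.02, 11.2 and 9.03 in WT and 12.3, 13.2 and 11.8 in *Tet2*-KO at 10 min, a difference of 0.35 ± 0.118 (edgeR, adjusted p = 0.0166) that rested on 198 to 277 reads per library. This call was lost when WT replicate 1 or 3 or *Tet2*-KO replicate 2 was left out (0.29 to 0.30). *Exosc1* (chr19:41922292-41933423, minus strand) had 35.5 ± 2.95 in WT and 33.7 ± 0.731 in *Tet2*-KO at 10 min (SD, n = 3), with an average of −0.06 ± 0.0397 (edgeR, adjusted p = 0.188).

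**Figure D4:**
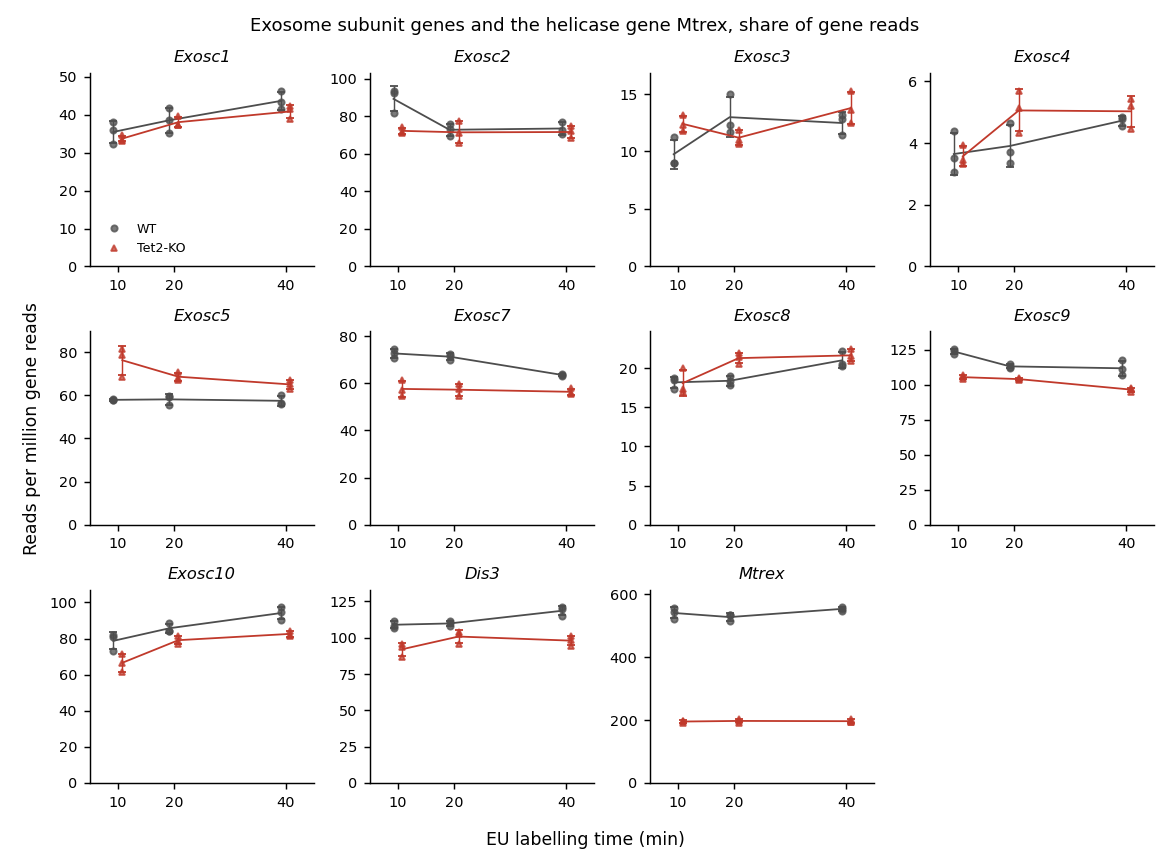
Share in CPM of each subunit gene and of the helicase gene *Mtrex* against EU labelling time, with each library as a point (WT, grey circles; *Tet2*-KO, red triangles), lines through the means and error bars of SD (n = 3), each panel with its own linear axis from 0. *Tet2*-KO libraries lie above WT at all 3 times for *Exosc5* and below WT at all 3 times for *Exosc7*, *Exosc9*, *Exosc10*, *Dis3* and *Mtrex*. The number of all genes tested that lie so in share was not counted.

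Counted by labelling time, the share of 2 subunit genes was higher at 10 min, *Exosc3* and *Exosc5* (17.9% of all genes tested), and that of 5 was lower (27.1% of all genes tested). At 20 min *Exosc5* and *Exosc8* were higher (17.6% of all genes tested) and *Exosc7*, *Exosc9* and *Dis3* lower (20.7% of all genes tested). The call of *Exosc8* at 20 min (0.21 ± 0.0829, edgeR, adjusted p = 0.0437) was lost in 14 of 25 alternative fits. The calls of *Exosc9* and *Dis3* at 20 min were lost with TMM factors and with DESeq2 size factors, and that of *Dis3* also without WT replicate 2 or *Tet2*-KO replicate 2 at 20 min, with values as near to 0 as −0.08 for *Exosc9* and −0.09 for *Dis3*. At 40 min *Exosc5* was higher (18.9% of all genes tested) and *Exosc7*, *Exosc9*, *Exosc10* and *Dis3* lower (19.6% of all genes tested). The number of subunit genes called higher was thus near the share of all genes at each time. At 10 and 40 min, 5 and 4 of 10 were called lower, a small excess over the share of all genes. No list test was made and genes of like read depth were not compared, so no result about the set is drawn from these counts.

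A measure free of both scales is the part of the summed reads of the 10 genes that each gene holds within a library. *Exosc5* held 9.68% ± 0.101 of these reads in WT and 14.2% ± 1.22 in *Tet2*-KO at 10 min (SD, n = 3), 9.94% ± 0.419 and 12.3% ± 0.431 at 20 min, and 9.56% ± 0.239 and 11.8% ± 0.496 at 40 min. The libraries of the genotypes did not overlap at any time. Reads on *Exosc5* per read on *Exosc7*, a pair chosen after their values were seen, were 0.797 ± 0.0177 in WT and 1.33 ± 0.153 in *Tet2*-KO at 10 min and 0.904 ± 0.0404 and 1.16 ± 0.0449 at 40 min, so reads on *Exosc7* exceeded those on *Exosc5* in every WT library and were below them in every *Tet2*-KO library. *Exosc9* and *Dis3* held the largest parts in all groups, 17.5% to 20.7% and 17.1% to 19.7% by group mean.

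Several of these subunit genes share their start region with a gene read in the opposite direction. The starts of *Exosc7* and *Zdhhc3* are 10 bases apart, those of *Exosc1* and *Zdhhc16* 57 bases, of *Exosc8* and *Alg5* 146 bases, and of *Exosc5* and *Bckdha* 183 bases. The share of *Bckdha*, a subunit gene of the branched-chain ketoacid dehydrogenase, differed by 0.09 ± 0.0474 (edgeR, adjusted p = 0.101), against 0.27 for its neighbour *Exosc5*. That of *Zdhhc3*, a palmitoyltransferase gene, was lower by −0.07 ± 0.0224 (edgeR, adjusted p = 0.00979), against −0.27 for *Exosc7*. *Dis3* and *Pibf1*, which overlap and whose starts are 346 bases apart, went in opposite directions, with −0.21 for *Dis3* and 0.30 ± 0.0178 for *Pibf1* (edgeR, adjusted p = 6.19e-16). Other pairs had the same sign, with 0.08 for *Exosc8* and 0.13 ± 0.0554 for *Alg5* (edgeR, adjusted p = 0.0379), −0.06 for *Exosc1* and −0.22 ± 0.0757 for *Zdhhc16* (edgeR, adjusted p = 0.0123), and 0.15 for *Exosc4* and 0.07 for *Oplah*, while *Exosc3* had 0.09 and *Dcaf10* 0.00. *Exosc3* and *Dcaf10* were paired by the annotated start of *Exosc3*, which lies 22116 bases from its RefSeq start. The gap within a pair was not tested. Genes within 5 megabases had median share differences of −0.09 around *Exosc5* (215 genes), −0.07 around *Exosc7* (100 genes) and −0.07 around *Dis3* (22 genes), against −0.037 for all genes tested. Of the 215 genes around *Exosc5*, 34 were called higher and 64 lower. *Exosc5* was opposite in sign to the local median, and a shift of its region was not tested.

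The start regions of the gene that rose in share and of the 2 with the largest falls are shown to let their makeup be compared, as the 250 bases before the RefSeq start (GRCm38.p6, the build also called mm10), 5′ to 3′ on the strand of the gene. Capitals mark matches on either strand to 6 motifs. The NRF1 core was searched as GCATGCGC. The ETS core was searched as CCGGAAG. The GC box was searched as GGGCGG. For the CCAAT box the letters were CCAAT, for the TATA box they were TATAAA, and the palindromic E-box was searched as CACGTG.
Exosc5, chr7:25658903-25659152, plus strand: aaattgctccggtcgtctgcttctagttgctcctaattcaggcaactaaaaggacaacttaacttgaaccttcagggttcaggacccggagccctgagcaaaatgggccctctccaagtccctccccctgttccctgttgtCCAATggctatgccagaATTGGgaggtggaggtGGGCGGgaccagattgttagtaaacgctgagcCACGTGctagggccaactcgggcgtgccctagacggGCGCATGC
Exosc7, chr9:123112981-123113230, plus strand: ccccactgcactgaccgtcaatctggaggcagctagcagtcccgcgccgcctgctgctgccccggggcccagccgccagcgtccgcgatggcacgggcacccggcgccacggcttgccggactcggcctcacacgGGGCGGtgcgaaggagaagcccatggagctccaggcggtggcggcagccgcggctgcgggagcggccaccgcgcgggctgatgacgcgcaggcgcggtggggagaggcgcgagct
Dis3, chr14:99099771-99100020, minus strand: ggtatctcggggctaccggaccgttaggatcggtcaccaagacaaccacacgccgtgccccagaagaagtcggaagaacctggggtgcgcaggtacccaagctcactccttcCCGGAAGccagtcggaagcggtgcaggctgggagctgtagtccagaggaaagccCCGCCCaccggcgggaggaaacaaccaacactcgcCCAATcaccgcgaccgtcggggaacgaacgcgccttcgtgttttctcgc
The window of *Exosc5* held 10 CpG dinucleotides, that of *Exosc7* 33 and that of *Dis3* 24, against a median of 6 over 32851 RefSeq promoters. Matches were found to the NRF1 core in *Exosc5* and in 1 of the 2 starts of *Exosc10* (2.26% of all promoters), to the E-box in *Exosc5* alone (6.02% of all promoters), and to the ETS core in *Dis3* and in the other start of *Exosc10* (6.91% of all promoters). The GC box was found in 6 of the 9 windows of the 8 members with an entry (32.7% of all promoters), the CCAAT box in 4 (33.8%) and the TATA box in 0 (12.4%). The matches in a window are letters only, and *Exosc4* and *Exosc9* had no entry.

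The next comparison was between labelling times, which asks how labelled RNA of each gene builds up. On the ERCC scale all 10 subunit genes rose from 10 to 40 min in WT (96.7% of all genes tested) and in *Tet2*-KO (94.7% of all genes tested), by 2.12 to 2.78 and by 1.83 to 2.55 on the log2 scale. The slope of the level on labelling time, the measure of synthesis rate in this design, was taken per gene with no correction for length, so it is not compared between genes. For *Dis3* it was 0.784 ± 0.0469 reads per 1000 ERCC reads per min in WT and 0.990 ± 0.0462 in *Tet2*-KO (SE, n = 9). The ratio of the slopes, *Tet2*-KO over WT, was above 1 for all 10 genes, from 1.26 ± 0.0958 for *Dis3* to 1.74 ± 0.219 for *Exosc3*, with a median of 1.51. No test was made on slopes. Since the levels at 20 min were closer between genotypes, the median ratio was 1.13 from 10 and 20 min alone and 1.67 from 20 and 40 min alone, and from 10 and 20 min alone it was below 1 for *Exosc3* (0.7785) and *Exosc7* (0.8821).

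As a share of gene reads, the subunit genes changed with labelling time in both directions, and the cap and the ring each held genes that rose and genes that fell. In WT the share of *Exosc1*, *Exosc3*, *Exosc8*, *Exosc10* and *Dis3* rose from 10 to 40 min (5 genes; 16.1% of all genes tested) and that of *Exosc2*, *Exosc7* and *Exosc9* fell (3 genes; 29.5% of all genes tested). *Exosc10* rose by 0.26 ± 0.0484 (edgeR, adjusted p = 4.59e-05) and *Exosc1* by 0.30 ± 0.0676 (edgeR, adjusted p = 0.000445), whereas *Exosc2* fell by 0.28 ± 0.0549 (edgeR, adjusted p = 8.35e-05). In *Tet2*-KO the share of *Exosc1*, *Exosc4*, *Exosc8* and *Exosc10* rose (4 genes; 16.5% of all genes tested) and that of *Exosc5* and *Exosc9* fell (2 genes; 20.0% of all genes tested). *Exosc1*, *Exosc8* and *Exosc10* rose in both genotypes and *Exosc9* fell in both. The falls of *Exosc9* in both genotypes and of *Exosc7* in WT did not pass with TMM factors or with DESeq2 size factors, where *Exosc9* in WT came as near to 0 as −0.05, *Exosc9* in *Tet2*-KO as −0.08 and *Exosc7* as −0.09. The rise of *Exosc8* was lost in 4 of 24 alternative fits in WT and in 3 of 24 in *Tet2*-KO. That of *Exosc4* in *Tet2*-KO was lost in 5 of 24, and in WT that of *Exosc3* in 3 and of *Dis3* in 1 of 24. *Exosc5* had −0.01 ± 0.0544 in WT (edgeR, adjusted p = 0.881) and fell by 0.23 ± 0.0537 in *Tet2*-KO (edgeR, adjusted p = 0.00104). The difference between these 2 changes, −0.21 ± 0.0764, did not pass the test (edgeR, adjusted p = 0.074). In WT the median share change of all genes was −0.14.

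Whether the genotype difference changed between 10 and 40 min was tested as an interaction. On the ERCC scale it became smaller for 3 subunit genes, *Exosc5* (−0.56 ± 0.138, edgeR, adjusted p = 0.00193), *Exosc3* (−0.54 ± 0.199, adjusted p = 0.0385) and *Dis3* (−0.37 ± 0.130, adjusted p = 0.0277), where 19.3% of all genes tested were called smaller and the median of all genes was −0.29. Leaving out single libraries gave 1 (without WT replicate 1 at 10 min) to 6 (without *Tet2*-KO replicate 2 at 10 min) such genes. As a share, the change was positive and passed the test for *Exosc2* alone (0.27 ± 0.0790, edgeR, adjusted p = 0.0271), where 5.89% of all genes tested were called in this direction. The share of *Exosc2* was lower in *Tet2*-KO by −0.31 at 10 min and −0.04 at 40 min, so its difference became smaller. The mean share of *Exosc2* was 89.4 CPM in WT and 72.3 in *Tet2*-KO at 10 min, and 73.6 and 71.7 at 40 min. The calls of *Exosc3*, *Dis3* and *Exosc2* were lost in 11, 7 and 9 of 24 alternative fits, and that of *Exosc5* in 0.

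Beside the subunit genes stand the genes whose products feed RNA to the exosome or act in other steps of RNA decay. Of 12 genes of nuclear exosome cofactors, 11 were tested. Averaged over labelling times, 10 of them were higher on the ERCC scale (80.5% of all genes tested) and 1 was lower (4.15% of all genes tested). As a share 2 were higher (24.6% of all genes tested) and 4 lower (32.0% of all genes tested). The gene that fell on both scales was *Mtrex*, which encodes the RNA helicase MTR4 of the nuclear exosome adaptors and lies at chr13:112867418-112927398 on the minus strand. Its share was 557, 523 and 543 CPM in the WT libraries at 10 min and 192, 196 and 199 in *Tet2*-KO. At 40 min it was 548, 559 and 555 in WT and 193, 194 and 203 in *Tet2*-KO. The libraries were far apart at every time, with a log2 fold change of the share of −1.46 ± 0.0159 (edgeR, adjusted p = 1.33e-36), at the percentile 2.43 of all genes, and of −0.73 ± 0.0501 on the ERCC scale (edgeR, adjusted p = 1.82e-38). The largest share difference of a subunit gene was 0.27 in size. Of 52 tested genes within 5 megabases of *Mtrex* on chromosome 13, 31 were lower and 9 higher in share, with a median of −0.49, against −0.04 for 900 genes tested on that chromosome, these 52 included, and the part of this region in the value of *Mtrex* was not tested.

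The other nuclear cofactors stayed near the bulk. *Zcchc8*, the scaffold of the nuclear exosome targeting complex, was higher in share by 0.15 ± 0.0254 (edgeR, adjusted p = 8.02e-06), and its partner *Rbm7* had −0.12 ± 0.0576 (edgeR, adjusted p = 0.066). *Zcchc7* of the TRAMP complex was higher by 0.05 ± 0.0163 (edgeR, adjusted p = 0.00467), and the poly(A) polymerases of that complex, *Tent4a* and *Tent4b*, had 0.03 and 0.01 and were not called. *Zfc3h1*, of the poly(A) tail exosome targeting connection, *Mphosph6*, which ties MTR4 to the core, and *Nrde2* were lower by −0.06 to −0.08. *Pabpn1* had 0 to 8 reads per library and was not tested.

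The counts for the remaining lists stand beside 80.5% of all genes tested called higher on the ERCC scale. In share, 24.6% of all genes tested were called higher and 32.0% lower. Of the 4 cytoplasmic cofactor genes, which encode the SKI complex and HBS1L, all were higher on the ERCC scale and 2 were lower in share, *Ttc37* by −0.14 ± 0.0183 (edgeR, adjusted p = 5.54e-08) and *Hbs1l* by −0.05 ± 0.0205 (edgeR, adjusted p = 0.0412). The homologues of the exosome nucleases split. *Dis3l*, the cytoplasmic relative of *Dis3*, was higher in share by 0.30 ± 0.0434 (edgeR, adjusted p = 3.52e-07), and *Pnpt1*, the mitochondrial polynucleotide phosphorylase gene, by 0.21 ± 0.0246, whereas *Dis3l2*, an exosome-independent nuclease gene, was lower by −0.31 ± 0.0198 (edgeR, adjusted p = 2.6e-15). Within the *Dis3* family the share thus fell for *Dis3* and *Dis3l2* and rose for *Dis3l*. Of the nuclear cap and adaptor genes, 4 of 5 were tested, all were higher on the ERCC scale, and in share 0 were higher and 1, *Srrt*, was lower (−0.13 ± 0.0233), with *Ncbp2* highest at 0.04. Of 9 genes of 5′-3′ decay, all were higher on the ERCC scale, and in share 2 were higher and 2 lower, from −0.59 for *Dcp1b* to 0.11 for *Dcp2*. Of 14 genes of deadenylation, all were higher on the ERCC scale, and in share 6 were higher and 3 lower, from −0.44 for *Cnot8* to 0.35 for *Cnot6l*. Median share differences of these 6 lists ran from −0.07 for the cytoplasmic cofactors to 0.21 for the nuclease homologues.

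**Figure D5:**
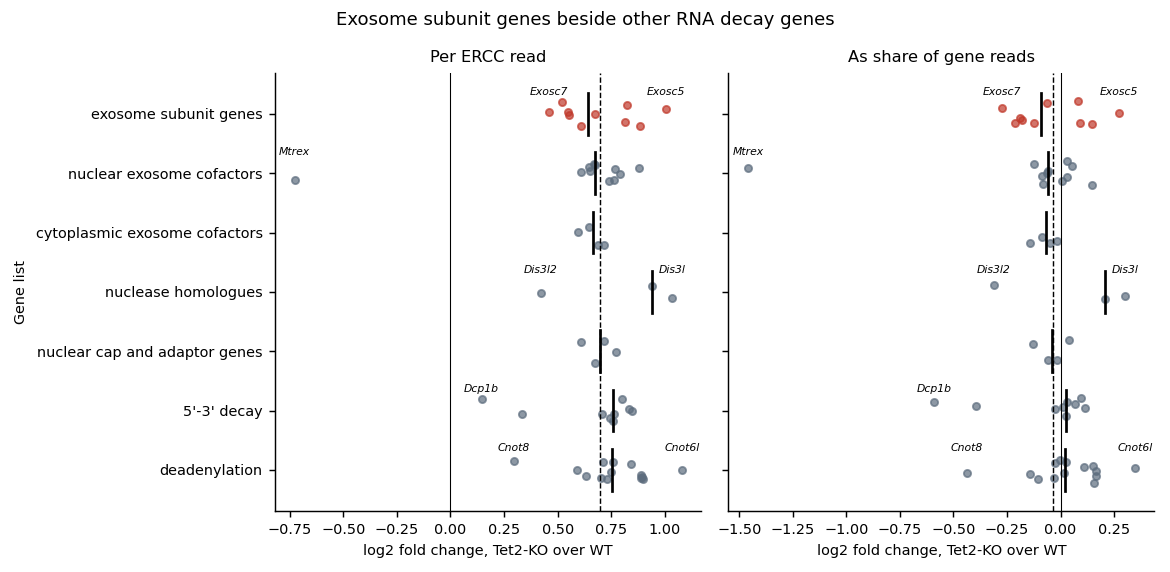
log2 fold change of *Tet2*-KO over WT, averaged over labelling times, for the exosome subunit genes (red) and 6 lists of other RNA decay genes (grey), on the ERCC scale (left) and as share of gene reads (right). Points are genes, shifted vertically for display, thick bars are list medians, the solid line marks 0 and the dashed line the median of all genes tested. *Mtrex* lies alone at −0.73 on the left and −1.46 on the right.

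Across the 18 libraries, the share of *Exosc1* followed the mean of the other subunit genes most closely (Pearson r = 0.795 on the log2 scale), followed by *Exosc10* (0.694), *Dis3* (0.489), *Exosc8* (0.346) and *Exosc4* (0.269). The other 5 had negative values, from −0.0244 for *Exosc3*, −0.126 for *Exosc7*, −0.184 for *Exosc9* and −0.363 for *Exosc2* to −0.728 for *Exosc5*. The genes outside the set most like the mean of the subunit genes were *Brd8* (r = 0.943), *Tmem87b* (0.927), *Morc2a* (0.920), *Hmgxb3* (0.917) and *Gm14412* (0.916), among 11745 genes. These values describe libraries that fall into 6 groups and share depth and composition, and carry no test.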

How the data were processed

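Strand-specific libraries of EU-labelled RNA were analysed from the counts per gene that the authors deposited for each of the 18 samples. Before deposit, per the labels and the methods of the study, reads were trimmed with Trimmomatic 0.39, aligned with HISAT2 2.2.1 to mm10 with GENCODE M19 and the 92 ERCC transcripts, and counted per gene with HTSeq 0.12.4. The counting mode is not given in the sources used here, and was read from nested genes as whole gene bodies on the sense strand, with reads shared by genes dropped. Reads on no gene were 13.16% to 16.88% of all reads listed in a file and ambiguous reads 2.316% to 2.504%, and neither entered library sizes.

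Genes were fitted with the edgeR 4.0.16 quasi-likelihood test (R 4.3.3, limma 3.58.1) in one model of 6 groups, with ERCC reads or gene reads as library size. The minimum count of filterByExpr was 10, which left 19910 genes, and p-values were adjusted over these by Benjamini-Hochberg at 0.05. Standard errors are the log2 fold change divided by the root of F. In simulated counts for the averaged contrast (19310 genes), 200 of 200 changed genes were recovered on each scale. Among unchanged genes, 5 were called on the ERCC scale and 6 on the share scale. Each gene was drawn independently, with the same dispersion for all genes and the ERCC totals taken as exact. Errors in these totals and differences between lines were thus left out, so false calls that they could cause were not measured. The changes put in were larger than any averaged share difference of a subunit gene, so recovery of such small differences was not measured. Slopes are least-squares lines. Levels per length were planned on exon length and are also given on gene span, because introns were counted.

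The lists of other genes were written with earlier results of these data known, while the members were taken by symbol. Named were all members, any gene of the cofactor and nuclease lists, the highest and lowest share difference of the other lists, overlapping genes, the nearest opposite start within 1000 bases, and the 5 genes most correlated with the members (mean log2 CPM above 2, prior count 2). Alternatives were other scalings (TMM, protein-coding reads, ERCC size factors), DESeq2 1.42.0, other filters, a replicate block, single labelling times and each library left out. Depth limits *Exosc4* most, and counting error alone is not the spread between dishes.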

Additional observations from a re-analysis of the deposited data

Results flagged for a closer look

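A change of the genotype difference between 10 and 40 min of labelling was called for 4 subunit genes by the edgeR interaction test with Benjamini-Hochberg adjustment. On the ERCC scale, *Exosc5* changed by −0.56 (log2, edgeR, adjusted p = 0.00193), *Exosc3* by −0.54 (adjusted p = 0.0385) and *Dis3* by −0.37 (adjusted p = 0.0277). In this direction 19.3% of all genes tested were called, and the median change was −0.29. As a share of gene reads, *Exosc2* changed by 0.27 (edgeR, adjusted p = 0.0271), where 5.89% of all genes tested were called in this direction. Of 24 alternative fits, 11 lost the call of *Exosc3*, 7 that of *Dis3*, 9 that of *Exosc2* and 0 that of *Exosc5*. None of these 4 genes was called on both scales.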

How the results depend on the processing

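The averaged log2 fold changes on both scales, and those of the single contrasts that passed the test and were recomputed, kept their direction under the alternatives run, while single contrasts that did not pass were not recomputed. The averaged calls of all 10 genes on the ERCC scale and of *Exosc5*, *Exosc7*, *Exosc9*, *Exosc10*, *Dis3* and *Exosc2* as a share held in all 24. With TMM factors and with DESeq2 on gene size factors, subunit genes called higher in average share went from 1 to 2, those lower at 20 min from 3 to 1 (*Exosc9* and *Dis3* lost), those with a positive change of the share difference from 10 to 40 min (*Exosc2*, whose difference became smaller) from 1 to 0, and those falling in share from 10 to 40 min from 3 to 1 in WT and from 2 to 1 in *Tet2*-KO. Genes with a smaller ERCC-scale difference at 40 than at 10 min went from 3 to 5 with DESeq2 on ERCC totals and to 5 with at least 10 counts in every library. Genes higher in share at 10 min went from 2 to 1 when each time was fitted alone, and at 20 min from 2 to 1 with protein-coding reads as library size and with no filter. The cause of these changes was not tested. Leaving out 1 library gave 1 to 6 genes for the smaller ERCC-scale difference, 1 to 2 higher in share at 10 min, 1 to 2 at 20 min and 0 to 1 at 40 min, 0 to 1 for the positive change of the share difference, and 3 to 5 rising in share in WT and 2 to 4 in *Tet2*-KO. At 40 min the 0 came without *Tet2*-KO replicate 1.

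The replicate block took the genes higher in share at 20 min from 2 to 1 (*Exosc8*, 0.21) and changed no other call. Replicate numbers did not pair the samples, with a median correlation of deviations of 0.00 over 45 pairs of same-numbered libraries (−0.22 to 0.19).

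The median ratio of slopes was 1.131 from 10 and 20 min only and 1.665 from 20 and 40 min only, against 1.51, and from 10 and 20 min only the ratio turned below 1 for *Exosc3* (0.7785) and *Exosc7* (0.8821). Gene span in place of exon length moved the place of 9 of 10 genes in the order of levels.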
